A study of Mus musculus with 360 samples.

Results

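The 7 tubulin genes Tuba1a, Tuba1b, Tuba1c, Tubb5, Tubb4b, Tubb2a and Tubb6 were taken by symbol from a table of 24781 genes measured in 360 single C1498 cells. C1498 is an established mouse line described as acute myeloid leukemia. In these cells myeloid markers were nearly absent and T-lineage markers were present, as given below. The cells of 1 arm received 45 °C for 10 min, and those of the control arm received 37 °C for the same 10 min. All cells were filmed and picked 1 by 1 with an automated instrument that joins live imaging to cell picking. The 45 °C arm held 6 cells labelled -1 h, picked before heating, and 309 heated cells, of which 13 were picked at 1 h, 52 at 10 h, 21 at 15 h and all the rest at 5 h. The 37 °C arm held 11 cells in each of the -1 h, 1 h and 15 h groups and 6 cells in each of the 5 h and 10 h groups. The 45 °C arm at -1 h and all 37 °C groups had received no 45 °C heat and are called the 6 unheated groups, with 51 cells. No label named separate cultures, so each of the 10 groups counted as 1 sample, and no test between groups was possible. A single cell line was used, and every heated group came from the 1 temperature and the 1 duration.

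Tubulin is the building block of microtubules. An alpha and a beta subunit pair into a stable dimer, and dimers join end to end into the hollow filaments that form the mitotic spindle and carry cargo through the cytoplasm. Mammals have several alpha and several beta genes, called isotypes, whose proteins are close to identical except near their ends. Folding of each chain needs the prefoldin and CCT chaperones and then a set of tubulin cofactors. Cells sense free dimers: when these build up, the factor TTC5 recognises the start of a tubulin chain as it leaves the ribosome, and the tubulin mRNA is degraded. That recognition reads the first few amino acids, so the start of each coding sequence is shown here, to let the 2 subunit classes be told apart and to show how alike the genes are. Each line gives the first 30 coding bases on the gene's own strand, from the GENCODE transcript of build GRCm38 (mm10), and the capitals mark the first 4 codons.
Tuba1a: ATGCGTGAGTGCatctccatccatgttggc
Tuba1b: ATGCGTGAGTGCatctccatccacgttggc
Tuba1c: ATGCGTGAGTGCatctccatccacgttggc
Tubb5: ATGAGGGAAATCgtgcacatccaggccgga
Tubb4b: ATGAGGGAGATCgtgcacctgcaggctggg
Tubb2a: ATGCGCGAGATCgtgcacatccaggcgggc
The first 12 bases were the same in the 3 alpha genes. Between any of the 3 beta genes printed they differed at 1 to 3 positions, and between an alpha and a beta gene printed at 3 to 5 positions. The likeness went on through the alpha genes: the coding sequences of Tuba1a and Tuba1b were 98.3% identical, against 83.6% between Tubb4b and Tubb2a.

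The alpha genes lie close together on chromosome 15, Tuba1b at 98931425-98934565 and Tuba1a at 98949837-98953703 on the minus strand and Tuba1c at 99029891-99038110 on the plus strand. The beta genes are spread out on the minus strand, Tubb4b on chromosome 2 at 25222160-25224702, Tubb2a on chromosome 13 at 34074274-34078007 and Tubb5 on chromosome 17 at 35833921-35838306, all in GRCm38. Of all 50-base windows in the transcripts, 52% of Tuba1a, 64.6% of Tuba1b and 59.8% of Tuba1c occurred word for word in another of the 7 genes, and none of those in their 3′ untranslated regions did. Among the beta genes the share was at most 0.0641%. Beta genes outside the 7, Tubb2b among them, were not compared in this way. The deposited values are estimated counts of RNA molecules, and some are not whole numbers. Values that were not whole held 86.8% of the UMIs (molecule barcodes counted) of Tuba1a, 85.4% of Tuba1b and 79.3% of Tuba1c, against 16.4% for Tubb5, 8.82% for Tubb4b, 6.90% for Tubb2a and 25.9% over all genes. The split of alpha molecules between the 3 alpha genes is therefore uncertain, while a division among the 3 leaves their sum as it is. The origin of the fractional values was not tested.

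The stretch before the start of transcription is shown for the 3 beta genes because their levels parted after heating. Each line gives 250 bases upstream of the RefSeq start on the gene's strand in GRCm38.p6, for Tubb4b chr2:25224703-25224952, for Tubb5 chr17:35838302-35838551 and for Tubb2a chr13:34078009-34078258. Capitals mark matches to the CCAAT box (CCAAT), the heat shock element (TTCNNGAA) and the TATA box (TATAAA), each searched on both strands.
Tubb4b: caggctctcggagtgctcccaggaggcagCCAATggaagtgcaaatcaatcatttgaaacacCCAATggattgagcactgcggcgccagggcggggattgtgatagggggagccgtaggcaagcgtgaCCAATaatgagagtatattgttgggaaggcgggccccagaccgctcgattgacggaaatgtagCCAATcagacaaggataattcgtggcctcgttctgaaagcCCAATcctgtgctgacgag
Tubb5: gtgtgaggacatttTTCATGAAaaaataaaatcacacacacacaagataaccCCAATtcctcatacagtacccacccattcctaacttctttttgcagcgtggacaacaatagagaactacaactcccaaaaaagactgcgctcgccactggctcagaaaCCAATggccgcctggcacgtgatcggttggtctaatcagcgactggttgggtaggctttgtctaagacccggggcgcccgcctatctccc
Tubb2a: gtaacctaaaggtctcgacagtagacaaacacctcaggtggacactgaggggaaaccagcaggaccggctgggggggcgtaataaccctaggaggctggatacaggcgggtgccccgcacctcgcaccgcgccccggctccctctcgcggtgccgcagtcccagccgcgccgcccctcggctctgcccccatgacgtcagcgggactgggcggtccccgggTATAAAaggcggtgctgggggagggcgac
Tubb4b held 5 CCAAT matches, and 0.213% of 32851 RefSeq promoter windows of the same length held 5 or more. Tubb5 held 2 CCAAT matches and 1 heat shock element match, which 10.1% and 12.8% of the windows also reached. Tubb2a held 1 TATA match, 29 bases before the start, as at least 1 was found in 12.4% of windows. A match is a run of letters in this window and says nothing of whether a factor binds there.

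Depth and cell identity were checked before the tubulin values were compared. The median number of UMIs per cell was between 18741 (45 °C, 10 h) and 40544 (37 °C, -1 h), single cells held 1060 to 122196, and no 2 cells had identical values. The 3 leukocyte markers summed to 1282 to 1996 CPM in the 4 heated groups, against 1686 to 2046 CPM in the 6 unheated ones. CPM here is the share of all UMIs of a group or cell, scaled so that all genes sum to 1000000. Of the 5 myeloid markers, Lyz2, Elane, Spi1 and Csf1r were at 0 in every cell and Mpo reached 2.06 CPM in 1 group, whereas the 4 T-lineage markers summed to 314 to 470 CPM in the heated groups, against 361 to 469 CPM in the unheated ones. Of the 4 neuron markers, whose tissue expresses several of these tubulins strongly, Snap25, Rbfox3 and Stmn2 were at 0, and Map2 stood at 9.19 to 13.4 CPM in the heated groups, against 6.61 to 29.9 CPM in the unheated ones. Depth and the content of ribosomal precursor RNA did differ between groups. Cells in which Rn45s, the ribosomal RNA precursor, held at least 50% of UMIs numbered 2 at 45 °C 5 h, 7 of 52 at 45 °C 10 h and 2 of 21 at 45 °C 15 h, with 0 in every other group. These cells are described after the genes.

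Summed over the 7 genes and over the cells of a group, tubulin RNA lay within the range of the unheated groups at every time after heating. The sum was 3821 CPM in the heated cells at 1 h against 4479 CPM in the 37 °C cells, 3501 against 3436 CPM at 5 h, 3973 against 4571 CPM at 10 h and 3755 against 4343 CPM at 15 h. Before heating the 2 arms stood at 4489 and 4384 CPM. As log2 of 45 °C over 37 °C the sums gave 0.03 before heating, -0.23 (-0.33 to -0.13) at 1 h, 0.03 (-0.07 to 0.13) at 5 h, -0.20 (-0.31 to -0.09) at 10 h and -0.21 (-0.30 to -0.12) at 15 h. The brackets give the exact 95% interval, which covers counting error only and neither the spread between cells nor that between cultures. All 4 heated sums lay between the lowest unheated group, 37 °C 5 h with 3436 CPM, and the highest, 37 °C 10 h with 4571 CPM. That the control of 5 h was the lowest unheated group touches each ratio at 5 h. Against all 51 unheated cells together, which had 4301 CPM, the log2 ratio at 5 h was -0.30. The median over all measured genes, defined below, was -0.23 in that comparison. The mean of single-cell CPM, in which every cell counts equally, gave another order: it was 3646 CPM at 1 h, 3351 CPM at 5 h, 3393 CPM at 10 h and 3308 CPM at 15 h in heated cells, the last 3 below the lowest unheated mean of 3467 CPM. At 10 h its log2 ratio was -0.46, against -0.20 for the pooled sums. With each cell brought to a common 5000 UMIs, averaged over all possible thinnings and leaving out 5 shallower cells at 45 °C 10 h, the ratio at 10 h was -0.32.

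Single cells spread widely around these sums. At 5 h the summed tubulin was 146.1 CPM in the lowest, 3395 in the median and 6897 in the highest heated cell, against 2591, 3496 and 4171 CPM in the 37 °C cells. Of the heated cells, 56 (25.1%) were below all 6 control cells and 64 (28.7%) above all of them, so the ranges overlapped. The heated cells reached further at both ends, but a group with so many more cells than the 6 controls is likely to do so without any difference. Shares of cells below or above all controls carry the same limit, here and for the single genes below. At 10 h the heated cells ran through 0, 3832 and 6611 CPM, against 3343, 4650 and 6091 CPM at 37 °C. Of the 52 heated cells at 10 h, 21 were below all 6 controls and 2 above.

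Few of the members passed a 1.5-fold mark, and the share of all genes that did was large. A gene counted as measured in a comparison when the 2 groups together held at least 20 UMIs and the higher group at least 10 CPM. Before heating 0 of 5 measured members were at least 1.5-fold higher or lower in the 45 °C arm, beside 11.7% of 4791 measured genes that were higher and 12.8% that were lower. At 1 h the count was again 0 of 5 in each direction, beside 5.60% higher and 19.5% lower. At 5 h Tuba1a was the 1 of 6 that was higher, beside 12.4% of genes, and Tubb4b and Tubb2a were the 2 of 6 that were lower, beside 30.6%. At 10 h and at 15 h Tubb2a was the 1 of 6 that was higher, beside 21.9% and 12.3% of genes, and 0 of 6 were lower, beside 19.1% and 11.8%. With all 51 unheated cells as control, 0 of 6 members were higher at 5 h, beside 4.88% of genes, and Tubb4b was the 1 of 6 lower, beside 24.2%. In that comparison Tubb2a was the 1 of 6 higher at 10 h, beside 16.8%, with 0 of 6 lower, beside 15.1%, and it was the 1 of 6 higher at 15 h, beside 13.5%. Read against these shares, the counts set the members apart from other genes at no time. Over all measured genes the median log2 ratio in time order from -1 h to 15 h was 0.01, -0.14, -0.23, 0.0030 and -0.02. Scaling by edgeR's TMM factors in place of the total raised every log2 ratio by 0.20 at 1 h and by 0.24 at 5 h, and moved the other times by less than 0.05.

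**Figure D1:**
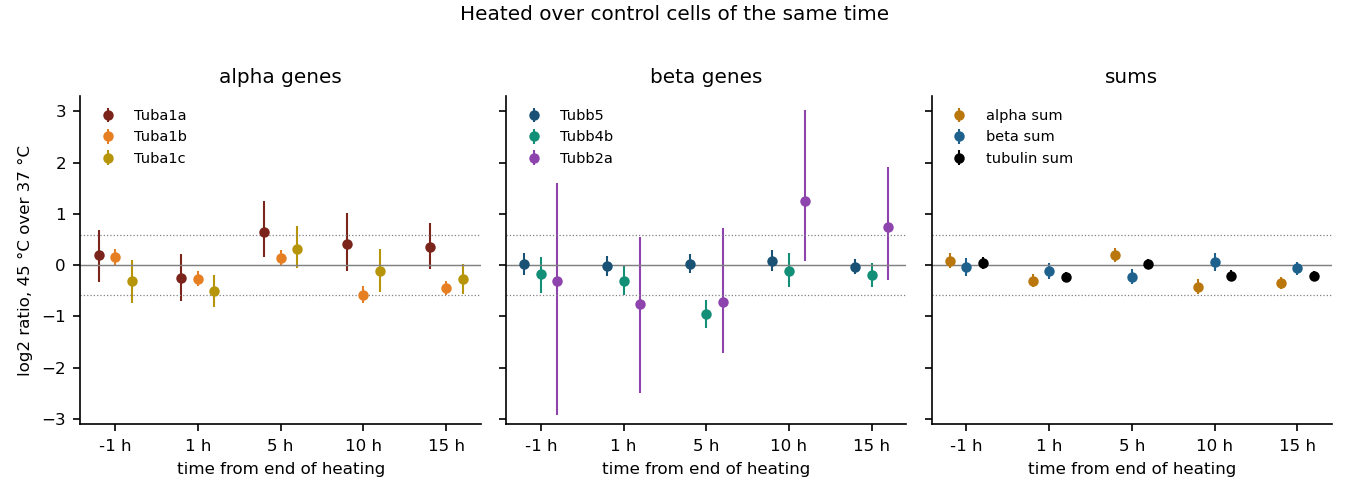
Log2 ratio of 45 °C over 37 °C cells picked at the same time (vertical axis) against time from the end of heating, for the alpha genes, the beta genes and the sums. Points are ratios of group sums, bars are 95% intervals of counting error only, and dotted lines mark 1.5-fold; Tubb4b at 5 h lies at -0.95 and the alpha sum at 10 h at -0.42.

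Tuba1b carried most of the alpha UMIs, 71.6% to 78.1% in the 45 °C arm and 74.7% to 81.5% in the 37 °C arm. It encodes the alpha-tubulin made by nearly all dividing cells. At 10 h Tuba1b ran through 0, 1183 and 2879 CPM (lowest, median and highest cell) in heated cells, against 1796, 2229 and 2590 CPM in 37 °C cells. The ranges overlapped, yet 37 of 52 heated cells were below all 6 controls and 2 were above them. The group level was 1458 CPM in heated cells against 2179 CPM at 37 °C, a log2 ratio of -0.58 (-0.75 to -0.41), just inside the 1.5-fold mark. The mean of single-cell CPM (-0.87) and the average over all thinnings to 5000 UMIs (-0.72) put it past the mark, whereas the log2 ratio to all unheated cells was -0.38. At 15 h the heated cells ran through 0, 1276 and 2030 CPM, against 580, 1864 and 2338 CPM in the 37 °C cells. No heated cell was above the highest control and 17 of 21 were below the control median, at a group level of 1319 against 1795 CPM and a log2 ratio of -0.44 (-0.58 to -0.31). The 10 h and 15 h groups had the 2 lowest Tuba1b levels of the 10 groups, both below the lowest unheated group, 37 °C 5 h with 1534 CPM, although the intervals of neighbours in that order overlapped throughout. Earlier times lay closer to the controls: 1708 against 2052 CPM at 1 h (log2 ratio -0.26, interval -0.41 to -0.12) and 1691 against 1534 CPM at 5 h (0.14, interval -0.01 to 0.29).

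Tuba1a, the alpha gene best known from developing neurons, had 253 CPM in the 45 °C arm before heating, against 223.2 CPM at 37 °C. At 5 h its lowest, median and highest cells had 0, 180.9 and 495 CPM in the heated group, against 0, 86.5 and 245 CPM at 37 °C. The ranges overlapped, and 59 heated cells (26.5%) were above all 6 controls, of which the lowest was at 0. The group level was 197.2 CPM in heated cells against 124.5 CPM in control cells, a log2 ratio of 0.64 (0.16 to 1.25). That ratio rests on 30.3 UMIs in the control, which was the lowest of the 10 groups for this gene, and it was 0.45, under the 1.5-fold mark, without cell 5 of the control and 0.94 without cell 2. Set against all unheated cells, with 190 CPM, the log2 ratio was 0.06 (-0.11 to 0.23), and against the 45 °C arm before heating it was -0.37. At 10 h Tuba1a was at 242 CPM in heated cells against 178.9 CPM at 37 °C (log2 ratio 0.41, -0.11 to 1.02), so here it did not share the lower level of Tuba1b. All 4 heated levels lay inside the unheated range of 124.5 to 253 CPM.

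Tuba1c, another alpha gene of dividing cells, stood lower at 1 h than in the 37 °C cells of that time. Its lowest, median and highest cells had 21.8, 347 and 654 CPM in heated cells, against 39.04, 501 and 777 CPM in 37 °C cells. Of the 13 heated cells 10 were below the control median and 0 above the highest control. The group level was 340 against 483 CPM, a log2 ratio of -0.51 (-0.82 to -0.19), and 37 °C 1 h was the highest of the 10 groups. Against all unheated cells the log2 ratio at 1 h was -0.17 (-0.44 to 0.08), and against the 45 °C arm before heating, with 325 CPM, it was 0.056. At 5 h heated cells had 280 CPM against 222.9 CPM at 37 °C (0.32, -0.05 to 0.76), where the control was again the lowest group. Against all unheated cells, with 383 CPM, the 5 h log2 ratio was -0.45 (-0.58 to -0.33), beside a median of -0.23 over all measured genes. At 10 h and 15 h the ratios were -0.11 and -0.27, with intervals that included 0.

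**Figure D2:**
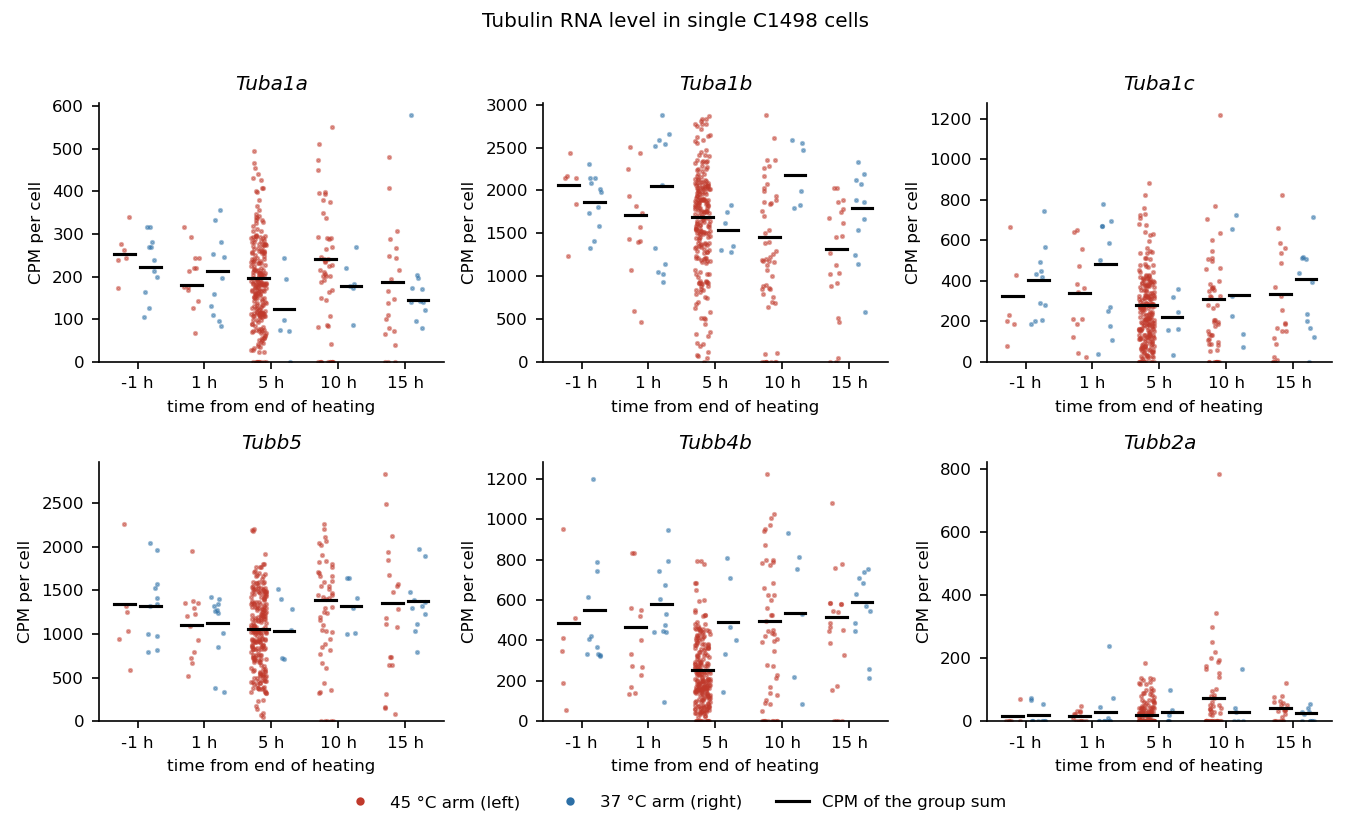
CPM of 6 tubulin genes in single cells (vertical axes, separate scales) by time from the end of heating, 45 °C arm on the left and 37 °C arm on the right of each pair. Each point is 1 cell and black bars are the CPM of the summed group; Tubb4b at 45 °C 5 h has its bar at 254 CPM and a median cell at 200 CPM, and Tubb6 is left out because 1 cell alone had any value.

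Tubb5, which gives most of the beta-tubulin of dividing cells, stayed close to the 37 °C control of the same time throughout. At 5 h its lowest, median and highest cells had 48.9, 1028 and 2210 CPM in the heated group, against 711, 1166 and 1518 CPM at 37 °C. The ranges overlapped, with 58 heated cells (26.01%) below all controls and 30 (13.5%) above. The log2 ratios in time order from -1 h to 15 h were 0.03, -0.02, 0.03, 0.08 and -0.03, and each interval included 0 (-0.14 to 0.22 at 5 h). With TMM scaling the values at 1 h and 5 h were 0.18 and 0.27. The 37 °C 5 h control was the lowest of the 10 groups for this gene. Against all unheated cells the 5 h log2 ratio was -0.25 (-0.32 to -0.18), and against the 45 °C arm before heating -0.35 (-0.52 to -0.16). Medians over all measured genes in these 2 comparisons were -0.23 and -0.25, so Tubb5 lay near the middle of all genes, at percentiles 48.6 and 44.6. Within the 45 °C arm the 10 h level was 0.39 (0.31 to 0.48) above the 5 h level on the log2 scale. The median over all measured genes in that comparison was 0.24, and Tubb5 was at percentile 58.9. All heated levels were between 1061 and 1394 CPM, against 1036 to 1377 CPM in the unheated groups.

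Tubb4b, a beta gene expressed in many tissues, departed furthest from its control among the 5 members above 100 CPM, at 5 h. Its lowest, median and highest cells had 0, 200 and 794 CPM in heated cells, against 143.6, 433 and 807 CPM in 37 °C cells. The ranges overlapped, but 87% of heated cells were below the control median, 68 cells (30.5%) were below all 6 controls and 0 were above them. The group level was 254 CPM (1729 UMIs) in heated cells against 490 CPM (119.5 UMIs) at 37 °C, a log2 ratio of -0.95 (-1.22 to -0.68). Relative to the median of all measured genes the log2 ratio was -0.73, which placed Tubb4b at percentile 16.5 of the 7594 measured genes and at percentile 5.66 of the 1820 genes that reached 100 CPM. The 5 h level was the lowest of the 10 groups, and in the order of groups it was the 1 step at which neighbouring intervals did not overlap: the next group, 45 °C 1 h, had 469 CPM. Against all unheated cells, with 550 CPM, the log2 ratio was -1.11 (-1.23 to -1.00), and against the 45 °C arm before heating it was -0.94.

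At the other times Tubb4b lay closer to its control, although at 1 h it was also below the lowest unheated group, the 45 °C arm before heating with 484 CPM. At 1 h heated cells had 469 CPM against 579 CPM (-0.30, interval -0.58 to -0.03), at 10 h 494 against 534 CPM (-0.12, -0.43 to 0.23) and at 15 h 518 against 593 CPM (-0.20, -0.43 to 0.04). Within the 45 °C arm the 10 h level was 0.96 (0.81 to 1.11) higher than the 5 h level on the log2 scale, and the 5 h level was 0.89 lower than the 1 h level (log2 ratio -0.89, -1.09 to -0.67). Medians over all measured genes in these 2 comparisons were 0.24 and -0.11. At a common depth of 5000 UMIs per cell, averaged over all possible thinnings, Tubb4b would be seen in 62.2% of heated cells at 5 h against 85.5% of control cells. The other heated groups had 72.6% to 81.4% and the other unheated groups 76.6% to 92.6%, so 5 h was the lowest of the 10. A single random thinning saw it in 63.1% of heated cells at 5 h (exact Clopper-Pearson interval 56.3% to 69.4%), but in the small groups such a draw is noisy, with 53.8% at 45 °C 1 h (25.1% to 80.8%) and 66.7% in the 45 °C arm before heating (22.3% to 95.7%). Without thinning the heated share at 5 h was 93.7%, against 6 of 6 control cells. Leaving out each cell in turn kept the log2 ratio at 5 h between -1.09 and -0.75, both extremes on leaving out 1 of the 6 control cells.

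Tubb2a is a beta gene strongest in nervous tissue and was scarce here, with 282 UMIs over all 360 cells. At 10 h the lowest, median and highest cells had 0, 26.9 and 784 CPM in the heated group, against 0, 13.7 and 164.6 CPM at 37 °C. The ranges overlapped, and 10 of 52 heated cells were above all 6 controls. The group level was 74.7 CPM (73.2 UMIs) against 28.9 CPM (5 UMIs), a log2 ratio of 1.24 (0.08 to 3.03), which was 2.22 without cell 4 of the control. At 15 h it was 42.5 CPM (28.5 UMIs) against 24.7 CPM (11 UMIs), a log2 ratio of 0.74 (-0.29 to 1.91), which was 0.56, under the 1.5-fold mark, without heated cell 18 and 1.24 without control cell 9. These were the 2 highest groups of the 10 and both were above the unheated range of 15.0 to 29.1 CPM, with overlapping intervals. Against all unheated cells, with 24.5 CPM, the log2 ratios were 1.60 (1.05 to 2.16) and 0.81 (0.04 to 1.47). At 5 h Tubb2a had 18.6 CPM in heated cells against 28.7 CPM in the control, which held 7 UMIs; the log2 ratio of -0.72 (-1.71 to 0.72) was inside the 1.5-fold mark with TMM scaling, at -0.48, and had the other sign, at 0.11, without cell 2 of the control. Within the 45 °C arm the 10 h level was 2.01 (1.56 to 2.42) above the 5 h level on the log2 scale, beside a median of 0.24 over all measured genes.

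Tubb6, a beta gene on chromosome 18 known from muscle and other tissues outside the brain, had an estimated 0.33 UMI in 1 cell of the 37 °C 15 h group and was at 0 in all other 359 cells. For a sum of 0 the limit used here is 3 counts, or 0.441 CPM at 45 °C 5 h and 12.3 CPM at 37 °C 5 h, and no ratio is given.

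The make-up of the beta pool followed from these values. Tubb4b held 19.04% of beta UMIs (18.2% to 19.9%) in heated cells at 5 h against 31.5% (27.01% to 36.6%) in 37 °C cells, and 25.2% to 33.4% in the other 8 groups. Tubb5 held 79.6% against 66.6% at 5 h. Tubb2a held 3.80% of beta UMIs at 45 °C 10 h against 1.53% at 37 °C 10 h. In the alpha pool Tuba1b held 72.5% (70.5% to 74.5%) in heated cells at 10 h against 81.01% (77.3% to 84.6%), and Tuba1a held 12.02% (10.6% to 13.5%) against 6.65% (4.56% to 9.31%). The alpha shares carry the uncertainty of molecules split between near-identical genes.

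**Figure D3:**
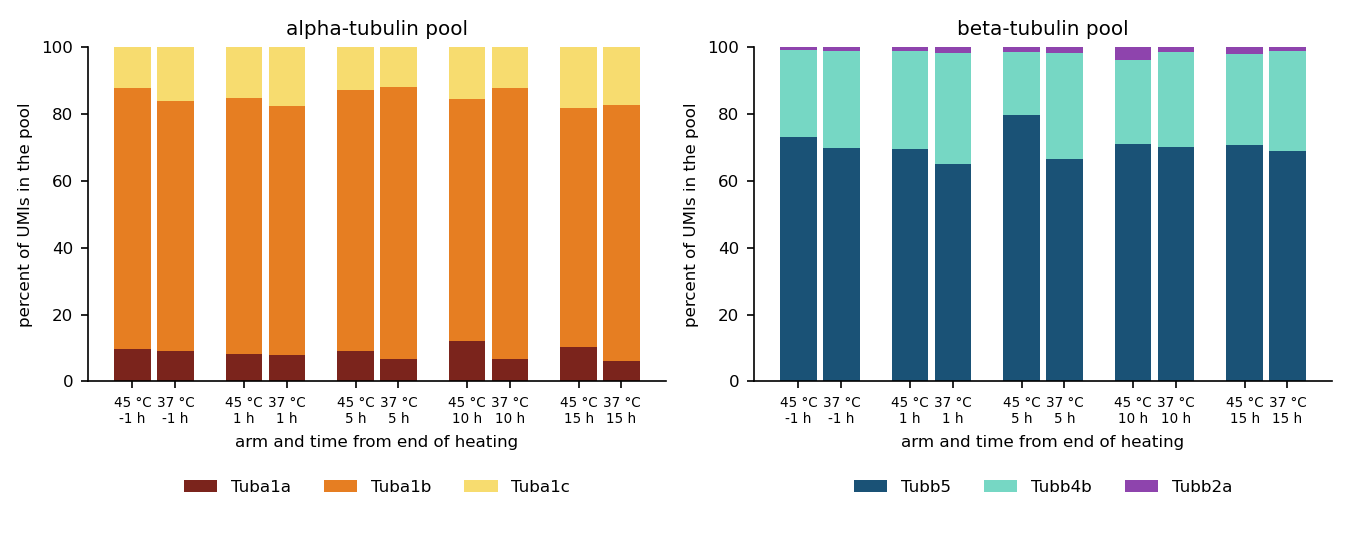
Share of each gene in the summed alpha-tubulin UMIs (left) and beta-tubulin UMIs (right), in percent, for the 10 groups in time order with the 45 °C arm left of the 37 °C arm. Stacked bars add up to 100%; the Tubb4b share at 45 °C 5 h is 19.04% against 31.5% at 37 °C 5 h.

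The balance of alpha to beta UMIs also differed between times. At 5 h heated cells had 1.63 alpha UMIs per beta UMI (1.58 to 1.67) against 1.21 (1.05 to 1.39) at 37 °C. At 10 h the order was the opposite, 1.02 (0.962 to 1.09) in heated cells against 1.43 (1.24 to 1.65) at 37 °C, and at 15 h the ratio was 0.965 (0.892 to 1.04) against 1.18 (1.08 to 1.29). Before heating the arms had 1.43 and 1.31, and at 1 h 1.40 in heated and 1.59 in control cells. The unheated groups ran from 1.18 to 1.59, so the heated groups lay above that range at 5 h, by less than the intervals, and below it at 10 h and 15 h. Over single cells the median ratio was 0.895 at 45 °C 10 h against 1.39 at 37 °C 10 h. The alpha sum alone had a log2 ratio of 0.20 (0.07 to 0.34) at 5 h, which was -0.19 against all unheated cells and -0.29 against the 45 °C arm before heating, -0.42 (-0.57 to -0.27) at 10 h and -0.35 (-0.47 to -0.23) at 15 h. The beta sum had -0.22 (-0.37 to -0.07) at 5 h, and 0.06 and -0.06 at 10 h and 15 h. Its 5 h value was 0.012 with TMM scaling, but -0.46 (-0.52 to -0.40) against all unheated cells. Against the 45 °C arm before heating it was -0.47. Medians over all measured genes in these 2 comparisons were -0.23 and -0.25. The 5 h level of the beta sum, 1333 CPM, was below the lowest unheated group, 37 °C 5 h with 1555 CPM. The ratio of alpha to beta within a group does not depend on the total used for scaling.

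**Figure D4:**
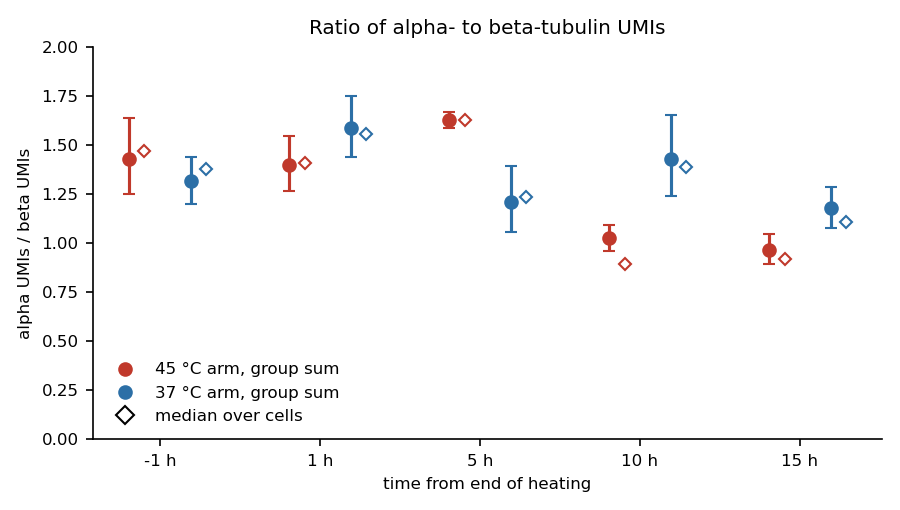
Alpha-tubulin UMIs divided by beta-tubulin UMIs (vertical axis) by time from the end of heating, 45 °C arm left of the 37 °C arm. Filled circles are group sums with 95% intervals of counting error only and open diamonds are medians over cells; the heated groups at 10 h and 15 h lie at 1.02 and 0.965, below all unheated groups.

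Some of the cells with little tubulin RNA were shallow and others were not. At 45 °C 10 h, 12 of 52 cells held under 10000 UMIs, 4 of the 21 at 15 h, 8 cells at 5 h, and 1 cell over all 37 °C groups did. The lowest unheated cell had 1734 CPM of tubulin, with 2 heated cells of 1 h, 26 of 5 h, 12 of 10 h and 5 of 15 h below it. Of these cells 2 of 1 h, 21 of 5 h, 4 of 10 h and 2 of 15 h held at least 10000 UMIs. The 7 cells at 10 h in which Rn45s held at least 50% of UMIs had 0 to 943 CPM of tubulin and at most 6246 UMIs, and 4 heated cells at 10 h had no tubulin UMI at all. Without the Rn45s-rich cells the log2 ratio of the tubulin sum was -0.17 at 10 h and -0.18 at 15 h, that of Tuba1b -0.55 and -0.42, and that of Tubb4b at 5 h -0.95. With cells of at least 10000 UMIs only, Tuba1b at 10 h had -0.53 and Tubb4b at 5 h -0.95.

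**Figure D5:**
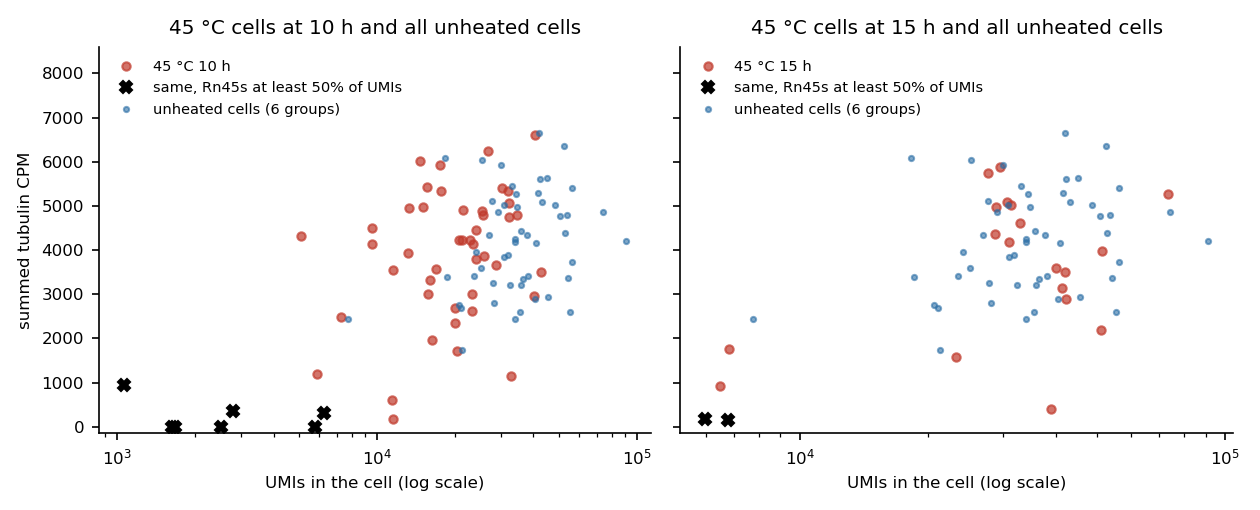
Summed tubulin CPM of single cells (vertical axis) against UMIs in the cell (horizontal axis, log scale) for the 45 °C cells at 10 h (left) and 15 h (right), with the 51 unheated cells in both. Black crosses are heated cells in which Rn45s held at least 50% of UMIs; the 7 at 10 h have at most 943 CPM.

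Within the 2 largest groups the members were compared from cell to cell after thinning to 5000 UMIs. Alpha and beta sums had a Pearson r of 0.42 over all but 1 of the cells at 45 °C 5 h and of 0.36 over 47 cells at 45 °C 10 h. On log2(CPM + 1) of all cells without thinning, r was 0.65 at 5 h and 0.81 at 10 h. After thinning, pairs of single members at 5 h lay between -0.15 (Tubb4b with Tubb2a) and 0.35 (Tuba1b with Tubb5). Rn45s-rich cells, which held up to 10267 UMIs at 5 h and 6246 at 10 h, were kept where they reached 5000 UMIs. Their part in r and in the spread below was not tested. The cells of a group share their handling and, after thinning, their depth, and the values are descriptions. The Fano factor, the variance over the mean of thinned UMIs, was 2.14 for Tuba1b and 1.996 for Tubb5 at 5 h, beside medians of 1.39 and 1.30 over other genes of like mean, and 1.39 for Tubb4b beside 1.12. At 10 h it was 2.75 for Tuba1b beside 1.71 and 2.35 for Tubb4b beside 1.26. For Tuba1a at 5 h it was 1.08 beside 1.11, so this gene varied about as other genes of its level did.

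The genes whose level followed the tubulin sum most closely over the 10 groups, among 1599 genes averaging at least 100 CPM, were Rab11b (Pearson r 0.88), Eif2b1 (0.87), Tram1 (0.86), Ssr3 (0.84) and Ppp2r5c (0.84). The same 10 group totals enter every value. These 5 are the highest of 1599 values over just 10 points each, and how high r would reach among unrelated genes was not tested. Over the thinned cells at 45 °C 5 h the 5 genes of highest r, among 1471, were Rad21 (0.33), Cdca8 (0.33), Top2a (0.31), Hmgb2 (0.31) and Cdc20 (0.29). Rad21 is a cohesin subunit, and Cdca8, Top2a and Hmgb2 are known from chromatin or chromosome handling in proliferating cells. Cdc20 and Top2a are also in the G2 and M phase list that follows. A list of 20 genes of G2 and M phase summed to 2430 CPM in heated cells against 2690 CPM at 37 °C at 5 h, and to 3173 against 3027 CPM at 10 h. That sum was 2663 against 3564 CPM at 1 h and 2746 against 3785 CPM at 15 h, and before heating 2443 against 3455 CPM, so the arms differed in it before any heat was given. The 16 genes of S phase summed to 2754 against 3261 CPM at 5 h, 3011 against 3872 CPM at 10 h and 2636 against 2509 CPM at 15 h. Before heating it was 3491 against 2852 CPM and at 1 h 3362 against 2511 CPM, with the 45 °C arm higher at both. The part of cell cycle state in the tubulin values was not tested.

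Among the 13 other tubulin genes, Tubal3 and Tubb1 were at 0 in every cell. At 5 h 4 of the 13 were measured, with 2 lower past the 1.5-fold mark, beside 30.6% of all measured genes, and Tubb2b higher, beside 12.4%. At 10 h 3 were measured, with 2 lower, beside 19.1%, and 0 higher, beside 21.9%. But against all unheated cells 0 of 4 were lower at 10 h, beside 15.1%, and Tubb2b was the 1 higher, beside 16.8%. Tuba4a, an alpha gene, had 61.7 CPM in heated cells against 106.7 CPM at 37 °C at 5 h (log2 ratio -0.81, -1.36 to -0.16), 74.5 against 132.7 CPM at 10 h (-0.85, -1.53 to -0.09) and 83.5 against 143.8 CPM at 15 h (-0.78, -1.33 to -0.24). Just 0.776% of its UMIs were in values that were not whole. Before heating it stood at 114.8 CPM in the 45 °C arm against 57.3 CPM at 37 °C, a gap of like size in the other direction before any heat. Tubg1, the gamma-tubulin that nucleates microtubules, had 55 against 41.02 CPM at 5 h (0.35, -0.47 to 1.49). Tubb2b, a near neighbour of Tubb2a in sequence, had 13.4 CPM at 45 °C 5 h and no UMI in the 6 control cells, where the limit of 3 counts is 12.3 CPM.

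Most genes of the tubulin folding machinery lay within 1.5-fold of their controls at 5 h. The 8 CCT subunits, which close around unfolded actin and tubulin chains, had a median log2 ratio, in time order from 1 h, of 0.07, 0.17, -0.14 and -0.15, beside medians over all measured genes of -0.14, -0.23, 0.0030 and -0.02. None of the 8 passed the 1.5-fold mark at 1 h, 5 h or 15 h and 1 was lower at 10 h, beside 19.1% of all measured genes. At 5 h 12.4% of all measured genes were higher and 30.6% lower. Tcp1 had 932 against 987 CPM at 5 h and Cct7 537 against 412 CPM (log2 ratio 0.37, 0.10 to 0.69). The 6 prefoldin subunits, which hand chains to CCT, had a median of -0.19 at 5 h with 1 of 6 lower, beside 30.6%. Of the 7 folding cofactors 0 were higher, beside 12.4%, and 1 lower, beside 30.6%, at 5 h, with a median of -0.31. At 10 h 3 of the 5 measured were lower (median -0.61), beside 19.1% of all measured genes. Against all unheated cells, by contrast, 0 of 6 were lower at 10 h (median -0.37), beside 15.1%. At 5 h Tbca, which binds beta-tubulin, had 319 against 345 CPM (-0.12, -0.43 to 0.22). Tbcc was the cofactor that was lower, with 14.2 against 28.7 CPM (7 UMIs in the control), a log2 ratio of -1.10 (-2.11 to 0.34). Against all unheated cells Tbcc had -1.26 (-1.72 to -0.78) at 5 h, and 2 of 7 cofactors were lower, beside 24.2% of all measured genes.

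The 3 listed genes of the mRNA decay route named above, Ttc5, Scaper and Cnot11, were few in UMIs and were all at least 1.5-fold lower at 5 h, with a median log2 ratio of -1.38, beside the 30.6% of all measured genes that were. Cnot11 had 39.7 CPM in heated cells against 65.6 CPM in control cells (-0.77, -1.45 to 0.10), which was inside the 1.5-fold mark with TMM scaling (-0.53) and against all unheated cells (-0.35, -0.68 to 0.01). Scaper had 6.02 against 20.5 CPM (5 UMIs in the control). Of the 10 genes of the gamma-tubulin ring complex, 6 were lower and 1 higher at 5 h (median -0.69), beside 30.6% and 12.4% of all measured genes. But against all unheated cells 2 of 9 measured ones were lower and 0 higher (median -0.34), beside 24.2% and 4.88%. At 15 h 0 were lower, beside 11.8%, and 4 of 8 measured ones higher (median 0.51), beside 12.3%. Against all unheated cells 3 of 10 were higher at 15 h, beside 13.5%. Of the 15 listed microtubule-binding proteins 14 were measured at 5 h. Of these 5 were lower, beside 30.6%, and 0 higher, beside 12.4% (median -0.18), with Mapre1 at 244 against 279 CPM. Of the 7 measured destabilizing and severing proteins 3 were lower at 5 h (median -0.41), beside 30.6%, Stmn1 standing at 286 against 316 CPM. Among the 8 measured tubulin-modifying enzymes 4 were lower and 0 higher at 5 h (median -0.57), beside 30.6% and 12.4%.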

How the data were processed

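The authors deposited 1 table of estimated counts of RNA molecules (UMIs), 1 column for each cell, without scaling. Per the submitters' processing notes, STAR and the build mm10 were used, without a version; the counting program, its annotation and any cell filter were not given in the sources used here. Per the labels' protocols, RNA was fragmented, reverse transcribed with a barcoded primer ending in T bases, and amplified after template switching. Columns were assigned to the 10 groups by the samples' labels, and no doublet caller was run on individually picked cells.

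Values were summed per gene and group, rounded to whole numbers for intervals only, and expressed as CPM. Log2 ratios add 0.5 UMI to each sum. Intervals are exact 95% Poisson (sums), conditional binomial (ratios) and Clopper-Pearson (shares) and cover counting error only. With 1 sample per group there is no replicate check and no p-value. Group totals ran from 173274 to 6809101 UMIs. Each measured member had at least 20 UMIs over both groups and 10 CPM in the higher one; 5 members passed at -1 h and 1 h and 6 later, and all 7 are described. The calculation was tested on simulated group sums with Poisson counting error alone. These held no spread between cells, so how the intervals behave under such spread was not tested. Python 3.11.15, numpy 2.4.6, scipy 1.17.1, pandas 2.3.3, matplotlib 3.10.9, R 4.3.3 and edgeR 4.0.16 (TMM and RLE factors only, no test) were used. Transcripts came from GENCODE for GRCm38 (all 7 matched) and promoters from RefSeq (6 of 7 matched); protein sequences were not analysed here. The members and lists were chosen with earlier results of these data known. From each list the 2 genes with most UMIs and those with the highest and lowest ratio at 5 h could be named.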

Additional observations from a re-analysis of the deposited data

Results flagged for a closer look

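In groups of 6 cells, a cell was marked when its gap to the nearest other cell exceeded Dixon's 95% critical share of the group's range. Of 27 gene and group combinations tested, 3 were marked, and chance alone marks about 5% of groups of normally spread values. Sparse counts are marked more easily, since a lone cell with a UMI among cells at 0 always is. All 3 were Tubb2a. Cell 6 of the 45 °C arm at -1 h had 71.5 CPM while the other 5 cells had 0. Cell 2 of the 37 °C group at 5 h had 97.9 CPM, with the next cell at 35.6 CPM. Cell 4 of the 37 °C group at 10 h had 164.6 CPM, with the next cell at 42.4 CPM, and without that cell the log2 ratio of Tubb2a at 10 h was 2.22 in place of 1.24. Tubb2a had 3 to 7 UMIs in each of these groups.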

How the results depend on the processing

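No paired analysis was possible because the numbers in the labels only name cells and each group is 1 sample without a test. Log2 ratios of the tubulin sum moved as follows. With TMM and RLE factors they were -0.033 and -0.063 at 1 h and 0.26 and 0.17 at 5 h. A single thinning to 5000 UMIs gave -0.081, -0.094, -0.51 and -0.31 at -1, 5, 10 and 15 h, and the mean of single-cell CPM gave -0.46 and -0.33 at the last 2 times. At 5 h all unheated groups gave -0.30 and the 45 °C arm before heating -0.36. Whole values alone gave 0.13, -0.50, 0.50 and 0.21 at 1, 5, 10 and 15 h; by construction this drops most alpha UMIs, and in 2 controls nearly all, so its alpha values are no measured folds. They were 6.25, -1.30 and 2.76 for the alpha sum at 1 h, 5 h and 15 h, -1.80 for Tuba1a at 5 h, 7.99 and 7.14 for Tuba1b at 1 h and 15 h, and 6.37 for Tuba1c at 1 h. Other reversals were the alpha sum at 5 h with all unheated groups as control (-0.19) or the unheated 45 °C arm (-0.29), where Tuba1a at 5 h (-0.37), Tuba1c at 1 h (0.056) and Tubb2a at 5 h (0.097) also reversed, and the beta sum at 5 h with TMM (0.012). Causes of the other moves were not tested. In time order, leaving out each cell in turn gave -0.16 to 0.12, -0.31 to -0.16, -0.074 to 0.090, -0.30 to -0.11 and -0.28 to -0.13, and for Tubb2a at 5 h it gave -0.93 to 0.11. Apart from leaving out cells, 384 values for genes and pools were set against their main value. Of these, 296 lay within its interval, whatever their sign, and 75 lay outside it. The other 13, all named above, reversed. A reversal was a change of sign where the main value passed 1.5-fold or its interval excluded 0. Sign changes of other main values were not counted as reversals. Alternatives keeping cells of at least 10000 UMIs or under 50% Rn45s, the average over all thinnings and TMM scaling of listed genes were chosen after seeing the data. With no minimum level, genes past 1.5-fold numbered 4185, 4728, 7890, 5708 and 4847 in time order, in place of 1172, 1322, 3263, 2638 and 1528, and past 2-fold 342, 407, 1631, 1224 and 396. Depth limits Tubb2a and Tubb6 most, and the controls of 5 h and 10 h hold 6 cells each.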
